A study of Mus musculus with 4 samples.

Results

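The transcripts of 10 heat shock and chaperone genes were followed in thymic invariant natural killer T (iNKT) cells, as 10 of the 31053 genes counted in the series. The genes were taken by symbol: Hspa1a, Hspa1b, Hspa8, Hsph1, Dnajb1, Dnaja1, Hsp90aa1, Hsp90ab1, Hspd1 and Hspe1. Each symbol matched 1 row of the deposited gene lists. Hspa1a and Hspa1b were selected on their measured counts, which differed between the genotypes in these libraries, so their genotype difference is given as values without a test. Single-cell RNA-seq (10x Genomics 5' chemistry) was done on 4 libraries, each from the thymus of 1 mouse. The groups were 2 wild-type C57BL/6 mice and 2 Hivep3-/- mice, all untreated and 8 to 9 weeks old. The missing protein, HIVEP3, has zinc fingers, and the line had been backcrossed to C57BL/6. The sort took thymocytes stained by the PBS57-CD1d tetramer, with CD44low and CD44high cells mixed in equal numbers, which set part of every share of cells.

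Heat shock proteins are molecular chaperones: they bind unfolded or newly made proteins and help them to fold. HSP70 proteins (Hspa genes) hold short unfolded stretches, HSP40 proteins (Dnaj genes) bring clients to them and start their ATP cycle, HSP110 (Hsph1) releases the nucleotide, and HSP90 (Hsp90aa1, Hsp90ab1) acts later on kinases and receptors. HSP60 and HSP10 (Hspd1, Hspe1) form the folding chamber of mitochondria. The heat shock factor HSF1 switches on the inducible members, above all Hspa1a and Hspa1b, within minutes of heat or other protein stress, whereas Hspa8 and Hsp90ab1 are made at high levels without stress. T cells also raise chaperones when they are activated and divide.

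Hspa1a (ENSMUSG00000091971, chr17:34969190-34972156, minus strand, GRCm38) and Hspa1b (ENSMUSG00000090877, chr17:34956436-34959238, minus strand) are neighbouring copies that code for nearly the same HSP70. The 250 bases before each start are shown because the members that stood out in these data share them almost wholly (RefSeq, GRCm38.p6, minus strand, 5′ to 3′). Capitals mark the heat shock element searched for, GAANNTTC or TTCNNGAA, each of which reads the same on both strands.
Hspa1a, chr17:34972157-34972406: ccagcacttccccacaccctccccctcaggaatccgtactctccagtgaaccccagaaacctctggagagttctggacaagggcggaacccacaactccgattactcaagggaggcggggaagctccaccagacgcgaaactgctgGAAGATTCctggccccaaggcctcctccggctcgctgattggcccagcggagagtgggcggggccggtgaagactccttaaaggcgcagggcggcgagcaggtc
Hspa1b, chr17:34959239-34959488: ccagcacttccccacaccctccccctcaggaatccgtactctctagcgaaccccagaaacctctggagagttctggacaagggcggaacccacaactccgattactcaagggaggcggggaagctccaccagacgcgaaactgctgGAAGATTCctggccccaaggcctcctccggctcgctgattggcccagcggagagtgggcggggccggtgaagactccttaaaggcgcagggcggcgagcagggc
Counted from 1 at the 5′ end, with the Hspa1a base first, the stretches differed at 3 of 250 positions, C44T, T47C and T249G. The match began 104 bases before either start.

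The sites of other members are shown as 30-base stretches for comparison with that element.
Hsph1, chr5:149636351-149636380, minus strand: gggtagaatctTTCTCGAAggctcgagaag
Dnaja1, chr4:40722333-40722362, plus strand: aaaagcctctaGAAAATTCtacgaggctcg
Hspe1, chr1:55088053-55088082, plus strand: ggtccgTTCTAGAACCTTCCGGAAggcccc
Hspd1 (chr1:55077835-55088243, minus strand) and Hspe1 (chr1:55088132-55091307, plus strand) start head to head and their first exons overlap on opposite strands. The Hspe1 site also stands in the 250 bases before 1 start listed for Hspd1, but not in those before its outermost start. It held 3 overlapping matches and, with them, the longer form GAANNTTCNNGAA or TTCNNGAANNTTC. No match lay in the 250 bases before either start listed for Dnajb1 (chr8:83608193-83612653, plus strand), nor before some of the starts listed for Dnaja1. Of 32851 promoter stretches of this length, 12.8% held at least 1 match to the short form and 0.466% held the long form, so the short form is common and says nothing of a factor's binding. The promoter table had no entry for Hspa8, Hsp90aa1 or Hsp90ab1.

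Because reads start at the 5′ end of transcripts, the likeness of Hspa1a and Hspa1b bears on their counts. Only 1 of the first 50 transcript bases differed between them. Of all 50-base windows in the first 500 bases of Hspa1a, 71.8% were also in Hspa1b, and over the whole transcript none of the 3′ UTR windows were. The split of counts between these copies is therefore uncertain, and their sum is given as well. Gm20481 lies antisense over Hspa1a, and the sources do not say whether counting used the strand. Whether reads of Gm20481 entered these counts was not tested. Among the other members, the first 500 bases shared 50-base windows with other genes, mostly pseudogenes, for Hsp90aa1 (55.2%), Dnaja1 (44.6%), Hspe1 (28.6%), Hspd1 (20.4%) and Hspa8 (14.2%), and not for Hsph1, Dnajb1 and Hsp90ab1.

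Between 25518692 and 45022744 unique molecular identifiers (UMIs, single counted transcripts) were kept per library, in 3651 to 7231 cells. The clusters were given 5 names from markers: stage 0-like precursors, cycling-like, iNKT2-like, iNKT17-like and iNKT1-like cells. Of the iNKT1-like cells, cluster 0 held most in every library (61.1%, 57%, 41.7% and 38.7% in C57BL/6 mice 1 and 2 and Hivep3-/- mice 1 and 2), and of the cycling-like cells cluster 6 (51.6%, 47.2% and 43.6%), except in Hivep3-/- mouse 2, where cluster 11 did (38.6%). All markers of these classes were detected in all 4 libraries. Markers of other cells that the sort could hold were low: all 8 double positive thymocyte genes summed to 22.8 to 40.5 CPM (UMIs of a gene per 1000000 UMIs of the library), 8 B cell genes to 34.8 to 60.8, 7 myeloid genes to 131 to 166 and 5 erythroid genes to 0.0585 to 0.133, and at least 2 of the erythroid genes were at 0 in each library. The library of Hivep3-/- mouse 1 stood apart in several ways. Its cells had the highest median depth (6833 UMIs against 4596 to 6491), the lowest median mitochondrial share (2.07% against 2.6% to 3.1%) and the largest iNKT1-like share (62% against 38.1% to 52.8%). C57BL/6 mouse 1 had 14609 Xist UMIs and no Y-linked UMI, whereas the other 3 libraries had 3 to 25 Xist UMIs and 3568 to 4879 Y-linked UMIs. The study describes the C57BL/6 mice of this experiment as female. C57BL/6 mouse 2 went against this, and the methods of the study say that both sexes were used. Sex and mouse cannot be told apart within C57BL/6. As both Hivep3-/- libraries had Y-linked UMIs, sex is also partly confounded with genotype. Libraries shared 26 to 58 cell barcodes by pair, at most 1.34% of the smaller library. Hivep3 itself was at 38.5 and 36.4 CPM in C57BL/6 mice 1 and 2 and at 101 and 68 in Hivep3-/- mice 1 and 2. The sources used here do not name the deleted exons, and 5′ counts can come from exons that remain, so these values do not check the labels. In cycling-like cells Hivep3 UMIs were called higher in Hivep3-/- (log2 difference 1.25, SE 0.24, edgeR adjusted p = 0.0266).

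Hspa1a and Hspa1b, the stress-inducible HSP70 genes, were at low levels in stage 0-like cells and at their highest in iNKT1-like cells in each of the 4 libraries. In every class the library of Hivep3-/- mouse 1 was above the other 3, at 7.3 to 16 times the next for Hspa1a and 2.33 to 7.44 times for Hspa1b. Levels are CPM over a library's cells of a class, with no further scaling. Values are given in the order C57BL/6 mouse 1, C57BL/6 mouse 2, Hivep3-/- mouse 1 and Hivep3-/- mouse 2 throughout. In iNKT1-like cells, the T-bet-dependent cells that make interferon-γ, Hspa1a was at 59.5, 20.1, 482 and 64.0. Hspa1b was at 28.4, 18.8, 151 and 64.8. The Hivep3-/- libraries did not overlap with C57BL/6 for either gene, but Hivep3-/- mouse 2 was at 1.08 times the level of C57BL/6 mouse 1 for Hspa1a and 2.29 times for Hspa1b. Across all genes tested in iNKT1-like cells, 25.1% likewise had both Hivep3-/- libraries above both C57BL/6 libraries.

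iNKT17-like cells, which express the receptor RORγt, held Hspa1a at 11.7, 3.72, 239 and 15.0 CPM. Their Hspa1b levels were 8.55, 3.72, 117 and 18.5. iNKT2-like cells, which make interleukin-4, held Hspa1a at 10.1, 5.72, 203 and 12.8 and Hspa1b at 4.31, 4.08, 74.2 and 17.1. In both classes the Hivep3-/- libraries were again above both C57BL/6 libraries, as they were for 22.2% of all genes tested in iNKT17-like cells and 30.3% in iNKT2-like cells. For Hspa1a, Hivep3-/- mouse 2 was at 1.28 times the higher C57BL/6 library in iNKT17-like cells and 1.27 times in iNKT2-like cells, whereas Hivep3-/- mouse 1 was at 16 and 15.9 times Hivep3-/- mouse 2. The 2 Hivep3-/- mice thus lay farther from each other than mouse 2 from C57BL/6.

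In dividing (cycling-like) cells the genotypes overlapped, where 41.1% of all genes were higher in both Hivep3-/- libraries. Hspa1a was at 12.7, 2.43, 92.9 and 4.56 and Hspa1b at 4.33, 2.27, 32.3 and 3.57, so that Hivep3-/- mouse 2 lay between the C57BL/6 mice for both. In Hivep3-/- mouse 1 the small cluster 13 was at 419 CPM for the summed copies and held 163 of their UMIs in this class, and it made up 17.3% of the class there against 1.36%, 3.28% and 5.43% in the others. Clusters 6, 10 and 11 of that mouse were at 83.7, 27.8 and 85.5, each also above the other 3 libraries. The 22 iNKT1 markers summed to 1080, 1240, 4350 and 2270 CPM in cycling-like cells, and their part in these levels was not tested. In stage 0-like cells, the CD24-positive cells that have just entered the lineage, Hspa1a had 7, 0, 108 and 1 UMIs, or 4.76, 0, 46.4 and 0.425 CPM. Hspa1b was at 2.72, 0, 9.88 and 0.425 CPM there. The 0 of C57BL/6 mouse 2 allows a level of up to 4.21 CPM (3 counts of the 713128 UMIs of that library's stage 0-like cells, counting error only). Here the genotypes overlapped as well (30.6% of all genes tested did not and were higher in Hivep3-/-), and neither gene passed the low-count filter. The order of the classes between these ends was not the same in all libraries: in C57BL/6 mouse 1 cycling-like cells had more Hspa1a than iNKT2-like and iNKT17-like cells, and in the Hivep3-/- mice they had less. Ordered by the mean of the 4 libraries, Hspa1a ran along the classes as 12.9, 28.1, 58, 67.4 and 156 CPM and Hspa1b as 3.26, 10.6, 24.9, 36.9 and 65.8, but the libraries of neighbouring classes overlapped at every step for both.

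**Figure D1:**
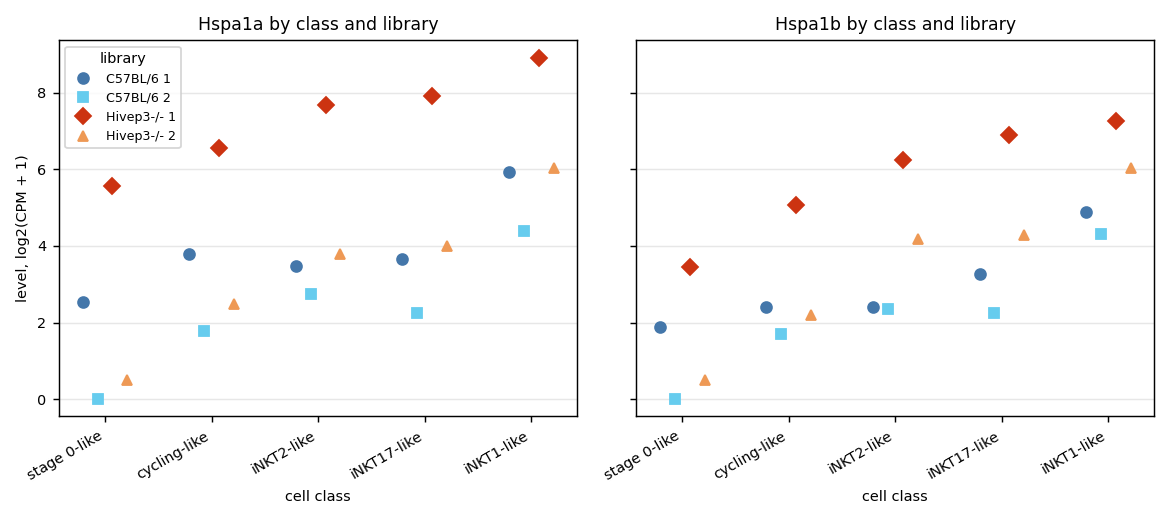
Levels of Hspa1a (left) and Hspa1b (right) in 5 cell classes, as log2(CPM + 1) on the vertical axis, with 1 point per library. The points of Hivep3-/- mouse 1 (red diamonds) lie above the other 3 in every class, and in iNKT1-like cells Hspa1a reached 482 CPM there against 20.1 to 64.0.

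Summed over both copies, iNKT1-like cells held 87.9, 38.9, 633 and 129 CPM and stage 0-like cells 7.48, 0, 56.3 and 0.851. Over all kept cells, where 33.7% of genes were higher in both Hivep3-/- libraries, Hspa1a was at 23.6, 10.3, 350 and 32.7 and Hspa1b at 10.8, 9.99, 112 and 33.6. This gives 16.9 ± 9.44 in C57BL/6 against 192 ± 225 in Hivep3-/- for Hspa1a, and 10.4 ± 0.536 against 73.0 ± 55.8 for Hspa1b (SD, n = 2 mice each). The SD of Hspa1a in Hivep3-/- exceeded its mean. The fitted log2 differences over all cells were 3.37 (SE 0.995) for Hspa1a and 2.71 (SE 0.51) for Hspa1b. In iNKT1-like cells they were 2.65 (SE 0.84) and 2.10 (SE 0.36). Without Hivep3-/- mouse 1 the differences over all cells were 0.87 for Hspa1a and 1.62 for Hspa1b, and in iNKT1-like cells 0.68 and 1.45. Without that mouse they were 0.59 and 1.97 in iNKT2-like cells, 0.88 and 1.52 in iNKT17-like cells, and -0.98 and -0.09 in cycling-like cells. Most of the fitted Hspa1a difference was thus carried by 1 library. In iNKT2-like, iNKT17-like and iNKT1-like cells and over all cells, the second Hivep3-/- mouse also stood above both C57BL/6 mice for both genes. Over all cells it was at 1.38 times the higher C57BL/6 library for Hspa1a and 3.12 times for Hspa1b. In iNKT1-like, iNKT17-like and iNKT2-like cells these ratios were 1.08, 1.28 and 1.27 for Hspa1a and 2.29, 2.16 and 3.97 for Hspa1b. iNKT1-like cells, where both genes were highest, made up 38.1% and 52.8% of the C57BL/6 and 62% and 52.1% of the Hivep3-/- cells. The part of this mix of classes in the values over all cells was not tested. The wider gap of Hspa1b depends on the uncertain split of counts between the copies. Their sum over all cells was 34.4, 20.3, 463 and 66.2 CPM. With 1 library per mouse, the mouse and its library cannot be told apart.

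Many cells of Hivep3-/- mouse 1 held the transcripts. After every cell was thinned to 2000 UMIs, at least 1 Hspa1a or Hspa1b UMI was found in 9.45% (95% exact interval 8.35 to 10.6), 6.17% (5.13 to 7.36), 40.8% (39 to 42.6) and 16.1% (14.6 to 17.8) of iNKT1-like cells. Unthinned shares were 13.5%, 10.7%, 54% and 28.7%. Both Hivep3-/- mice were above both C57BL/6 mice, and Hivep3-/- mouse 1 was far above mouse 2. In iNKT17-like cells the thinned shares were 2.79%, 0%, 32.8% and 4.62%, where the 0 of 125 cells allows up to 2.4%. iNKT2-like cells gave 2.69%, 1.69%, 25.9% and 6.07%, and cycling-like cells 3.85%, 0.758%, 14.7% and 2.45%. The shares were lowest in stage 0-like cells, at 1.18% (3 of 254 cells), 0% (0 of 106 cells, which allows up to 2.83%), 7.71% (27 of 350 cells) and 0.279% (1 of 359 cells). None of the classes is known to lack these genes, so the stage 0-like share is given as the lowest in place of a background share. Median depths before thinning were 4236 to 5639 UMIs in stage 0-like and 3529 to 6504 in iNKT1-like cells that were kept. Thinning left out 502, 91, 82 and 75 cells that were too shallow.

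Cells with 5 or more Hspa1a or Hspa1b UMIs after thinning made up 0.622%, 0.106%, 10.4% and 0.604% of iNKT1-like cells. The fullest iNKT1-like cell held 15, 6, 17 and 9 UMIs. The top 1% of iNKT1-like cells held 33.8%, 33.7%, 9.57% and 19.8% of the UMIs, a share that falls as the level rises and so does not measure evenness. Of 15 clusters, 12 held at least 20 cells of every library, and in all 12 the summed level was highest in Hivep3-/- mouse 1, by 2.34 to 10.6 times the next library. Both larger clusters that got no class name followed this too: the Klra3 and Cxcr3 cells of cluster 3 were at 40.6, 20.2, 582 and 60.8 CPM, and the Tnni1 and Htra3 cells of cluster 8 at 26.0, 10.8, 165 and 19.1.

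**Figure D2:**
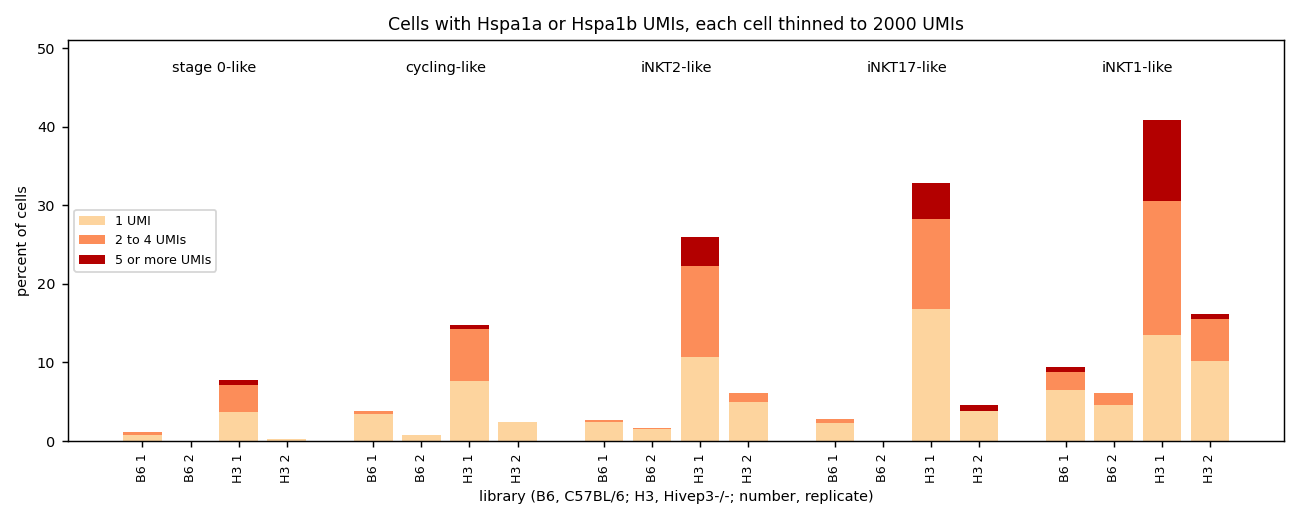
Percent of cells (vertical axis, from 0) with Hspa1a or Hspa1b UMIs after each cell was thinned to 2000 UMIs, by class and library (B6, C57BL/6; H3, Hivep3-/-), with bars split by 1, 2 to 4, and 5 or more UMIs. In iNKT1-like cells the bars reach 9.45%, 6.17%, 40.8% and 16.1%, and the part with 5 or more UMIs is 10.4% in Hivep3-/- mouse 1 and under 1% in the others.

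The counts were split between the copies in different ways by library. Over all cells Hspa1a took 68.7% (95% exact interval 66.3 to 71) of 1063 Hspa1a and 484 Hspa1b UMIs in C57BL/6 mouse 1 and 75.7% (75 to 76.4) of 11977 and 3843 in Hivep3-/- mouse 1. It took 50.7% (46.3 to 55.1) of 262 and 255 UMIs in C57BL/6 mouse 2 and 49.3% (47.1 to 51.5) of 1020 and 1048 in Hivep3-/- mouse 2. The share was near even in both mice numbered 2 and well above it in both mice numbered 1, whatever the genotype. iNKT1-like cells alone gave 67.7%, 51.6%, 76.1% and 49.7%. The numbers are not stated to mark a shared day or run, and the part of read assignment in this split was not tested.

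**Figure D3:**
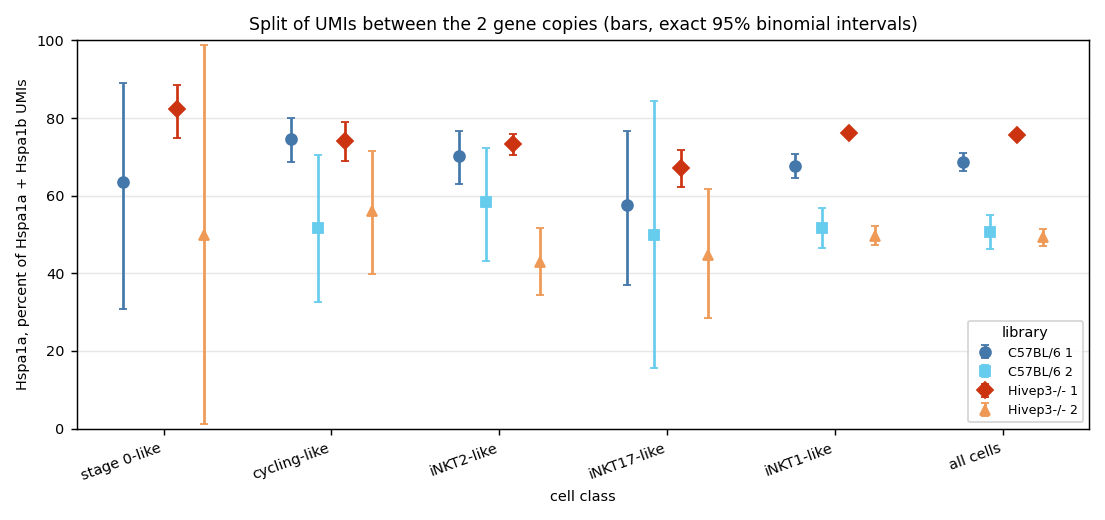
Share of Hspa1a among the UMIs of Hspa1a and Hspa1b (vertical axis, percent) by class and library, with exact 95% binomial intervals that cover counting error only. Over all cells the shares are 68.7% and 75.7% in the mice numbered 1 and 50.7% and 49.3% in the mice numbered 2, and the intervals are wide in stage 0-like and iNKT17-like cells, where few UMIs were counted.

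Of the other 8 members, none was called between genotypes in any class or over all cells (edgeR quasi-likelihood test, Benjamini-Hochberg adjustment over all genes tested, adjusted p under 0.05). DESeq2 called none of them either, although Hsph1 was called under some alternative settings of edgeR. At an unadjusted p under 0.05, edgeR gave 1 of 8 in cycling-like cells and 1 of 8 over all cells, Hsp90aa1 in both, and 0 in the other classes. Of all genes tested, 8.66%, 19.3%, 10%, 5.47% and 8.46% passed that unadjusted threshold in the classes from stage 0-like to iNKT1-like cells, and 12% over all cells, so 1 of 8 does not stand out from that background. Of all genes tested, edgeR called 0.331%, 4.51%, 0.474%, 0.0658% and 0.704% in the classes from stage 0-like through cycling-like, iNKT2-like and iNKT17-like to iNKT1-like cells, and 0.765% over all cells. DESeq2 called 0.388%, 4.19%, 1.02%, 0.118%, 1.57% and 3.36% in the same order.

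Hsph1 (ENSMUSG00000029657, chr5:149614287-149636376, minus strand), the HSP110 that resets HSP70, showed the next widest gap between Hivep3-/- mouse 1 and the other libraries. Its levels in iNKT1-like cells were 65.4, 40.7, 132 and 50.6 CPM, and in stage 0-like cells 95.9, 70.1, 189 and 61.2. It was at 64.4, 63.9, 139 and 64.8 in dividing cells, where both Hivep3-/- libraries were above C57BL/6 as for 41.1% of all genes, at 44.7, 33.5, 101 and 37.1 in iNKT2-like and at 45.1, 32.6, 99.4 and 34.4 in iNKT17-like cells. In every class Hivep3-/- mouse 1 was 1.97 to 2.27 times the next library, while Hivep3-/- mouse 2 lay within the C57BL/6 range or beside it. The fitted log2 difference was 0.68 over all cells (SE 0.39, edgeR adjusted p = 0.55) and 0.42 to 0.70 by class. It was below 0 in every class without Hivep3-/- mouse 1, at -0.12 over all cells. Without Hivep3-/- mouse 2 Hsph1 was called higher in stage 0-like (0.97, adjusted p = 0.0171), cycling-like (0.90, adjusted p = 0.00881), iNKT17-like (1.22, adjusted p = 0.0022) and iNKT1-like cells (1.17, adjusted p = 0.000464). With 1 Hivep3-/- library left, that fit assumes it varies like the C57BL/6 libraries, and it called 2.46%, 6.74%, 1.6% and 3.4% of all genes in those classes. In iNKT2-like cells (0.179% of all genes called) and over all cells (0.695%) it called no member, with Hsph1 at 1.201 and 1.158. Hsph1 was also called in iNKT2-like cells without C57BL/6 mouse 1 (0.93, adjusted p = 0.0217, 1.86% of all genes called). Without the low-count filter it was called in iNKT2-like cells (0.69, adjusted p = 0.011, 2.63% of all genes), in iNKT1-like cells (0.69, adjusted p = 0.00279, 2.98%) and over all cells (0.68, adjusted p = 0.00394, 5.46%).

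Hspa8 (ENSMUSG00000015656, chr9:40800984-40810087, plus strand), the constitutive HSP70, was abundant in every class. It was at 3060, 2010, 5020 and 2250 CPM in stage 0-like cells and at 3040, 2120, 4960 and 2560 in cycling-like cells. iNKT2-like cells held 2340, 1750, 3290 and 2000, iNKT17-like cells 2230, 1790, 3190 and 1810, and iNKT1-like cells 2300, 1890, 3240 and 1910. Its level was thus higher in the early and dividing classes than in the mature ones in each library, by 1.21 to 1.57 times between the highest and the lowest class. Hivep3-/- mouse 1 had the highest level in all 5 classes, and Hivep3-/- mouse 2 lay between the C57BL/6 mice in all 5. The fitted difference was 0.20 over all cells (SE 0.25, edgeR adjusted p = 0.806) and turned to -0.21 without Hivep3-/- mouse 1. Without Hivep3-/- mouse 2 it was called in stage 0-like cells (0.80, adjusted p = 0.00498) and cycling-like cells (0.72, adjusted p = 0.031).

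Dnajb1, the inducible HSP40 that works with HSP70, was at 148, 165, 230 and 159 CPM in stage 0-like cells, 112, 78.1, 149 and 114 in cycling-like cells and 95, 74.9, 151 and 91.4 in iNKT2-like cells. It was at 113, 99.5, 172 and 89.0 in iNKT17-like and at 192, 144, 252 and 172 in iNKT1-like cells. It was lowest in cycling-like, iNKT2-like or iNKT17-like cells and highest at either end of the maturation series. Both its Hivep3-/- libraries were above C57BL/6 in cycling-like cells and over all cells, as for 41.1% and 33.7% of all genes. The difference over all cells was 0.44 (SE 0.21, edgeR adjusted p = 0.469), or 0.11 without Hivep3-/- mouse 1. Dnaja1 (chr4:40722150-40737149, plus strand), a housekeeping HSP40, was highest in stage 0-like cells of every library, at 598, 461, 773 and 495. It was at 443, 365, 545 and 375 in cycling-like cells, then at 313, 242, 360 and 252 in iNKT2-like, 310, 232, 375 and 246 in iNKT17-like and 327, 224, 371 and 212 in iNKT1-like cells. For Hspa8, Hsph1 and Dnajb1, classes next to each other in order of mean level overlapped across libraries, and for Dnaja1 they did except cycling-like (lowest 365) and iNKT2-like cells (highest 360). Its fitted difference was 0.02 over all cells (SE 0.22, edgeR adjusted p = 0.987) and near 0 in iNKT1-like cells.

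The HSP90 genes were highest in the early and dividing classes, and Hivep3-/- mouse 1 was the highest library in 2 of 5 classes for Hsp90aa1 and 3 of 5 for Hsp90ab1, by at most 1.21 times. Hsp90aa1 (chr12:110690605-110702728, minus strand), the inducible form, was highest in cycling-like cells of every library, at 743, 790, 715 and 695 CPM. It was at 599, 595, 700 and 561 in stage 0-like, 332, 333, 321 and 306 in iNKT2-like, 292, 272, 253 and 284 in iNKT17-like and 293, 257, 306 and 270 in iNKT1-like cells. The libraries of 1 class lay closer together than the cycling-like and iNKT1-like cells of any library. In cycling-like and iNKT2-like cells, and over all cells, both Hivep3-/- libraries were below both C57BL/6 libraries, as were 13.8%, 13.5% and 13.8% of all genes. The difference over all cells was -0.34 (SE 0.13, edgeR adjusted p = 0.353), where cycling-like cells made up 16.2% and 10.8% of the C57BL/6 and 4.39% and 8.83% of the Hivep3-/- cells. Hsp90ab1 (chr17:45567775-45573271, minus strand), the constitutive form, declined along the classes in every library. It was at 4940, 4430, 5070 and 4200 in stage 0-like, 4410, 3670, 4120 and 3670 in cycling-like, 3540, 2810, 3300 and 2950 in iNKT2-like, 2660, 2330, 2840 and 2170 in iNKT17-like and 2120, 1860, 2560 and 1990 in iNKT1-like cells. Cycling-like and iNKT2-like cells did not overlap for Hsp90ab1, while the other neighbouring classes did. For Hsp90aa1, stage 0-like and cycling-like cells overlapped with each other and lay above the 3 mature classes. Fewer transcripts per cell and a larger total of other transcripts cannot be told apart from such levels.

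The mitochondrial pair was likewise high in stage 0-like and cycling-like cells. Hspd1, HSP60, was at 488, 471, 536 and 396 CPM in stage 0-like and 538, 463, 596 and 431 in cycling-like cells. It was at 255, 254, 278 and 215 in iNKT2-like, 178, 157, 213 and 166 in iNKT17-like and 168, 131, 223 and 163 in iNKT1-like cells. Within a library the highest class was 2.65 to 3.59 times the lowest, a wider range than between the libraries of any class. Hspe1, HSP10, was at 613, 707, 721 and 593 in stage 0-like, 662, 701, 703 and 603 in cycling-like, 486, 521, 501 and 507 in iNKT2-like, 366, 408, 403 and 354 in iNKT17-like and 354, 377, 448 and 432 in iNKT1-like cells. For both genes stage 0-like overlapped with cycling-like cells and iNKT17-like with iNKT1-like cells, with iNKT2-like cells between them, apart from all others for Hspe1 and from all but iNKT1-like cells for Hspd1. Both Hivep3-/- libraries were above C57BL/6 for Hspe1 in iNKT1-like cells, as for 25.1% of all genes there, and its fitted difference was 0.20 (SE 0.13, edgeR adjusted p = 0.788). Whether reads in the overlap of the first exons of Hspd1 and Hspe1 were counted for the right gene was not tested either.

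**Figure D4:**
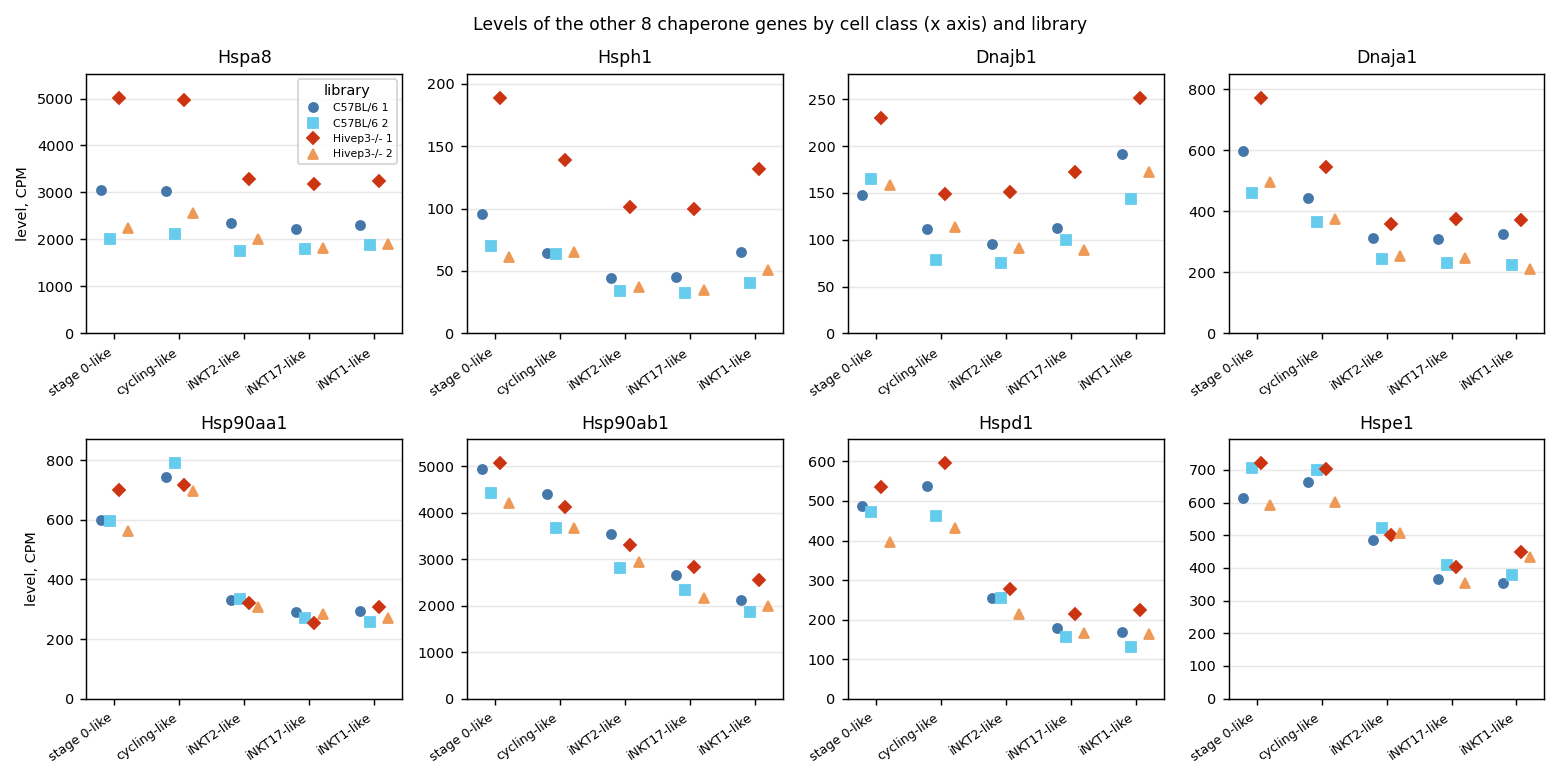
Levels of the other 8 members (vertical axes, CPM, from 0) by class and library, with 1 point per library. Hivep3-/- mouse 1 (red diamonds) is highest in all 5 classes for Hspa8, Hsph1, Dnajb1, Dnaja1 and Hspd1, while Hsp90aa1, Hsp90ab1, Hspd1 and Hspe1 differ more between classes than between libraries.

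Apart from Hspa1a and Hspa1b, which were selected on these counts, Hivep3-/- mouse 1 was the highest of the 4 libraries in all 5 classes for 5 of 8 members: Hspa8, Hsph1, Dnajb1, Dnaja1 and Hspd1. Of 7173 genes tested in all 5 classes, 954 (13.3%) did the same. Class by class, in the order above, that library was highest for 42.1%, 44%, 46.1%, 38.5% and 45.7% of all genes tested, and for 44.5% over all cells. Over all cells its level was 10.7 times the next library for Hspa1a, 3.35 times for Hspa1b, 2.19 for Hsph1, 1.56 for Dnajb1, 1.36 for Hspa8 and 1.12 for Dnaja1. For Hsp90aa1, Hsp90ab1, Hspd1 and Hspe1 it was not the highest over all cells.

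**Figure D5:**
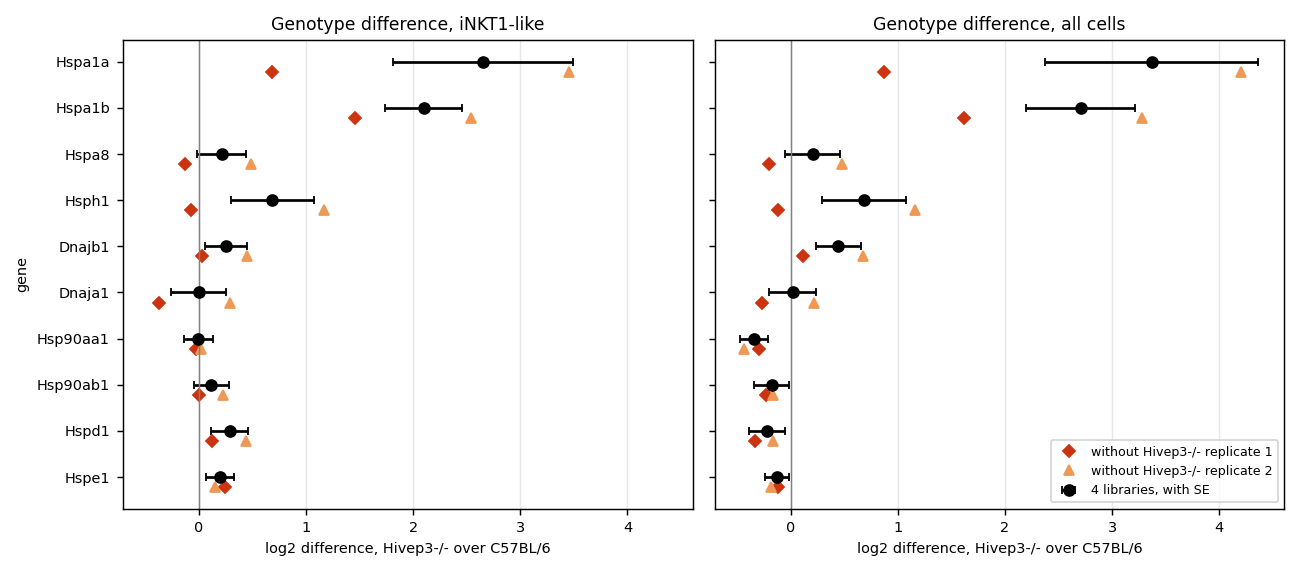
Fitted log2 difference between genotypes (horizontal axis, Hivep3-/- over C57BL/6) for each member in iNKT1-like cells (left) and all cells (right), with the SE for all 4 libraries (black) and without either Hivep3-/- library (red, orange). Leaving out Hivep3-/- mouse 1 took Hspa1a over all cells from 3.37 to 0.87 and Hsph1 from 0.68 to -0.12.

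Within each library, Dnajb1 and Hsph1 were higher in cells that held Hspa1a or Hspa1b. Among iNKT1-like cells thinned to the same depth, those with an Hspa1a or Hspa1b UMI held more Dnajb1 than those without, by ratios of 1.29, 1.26, 1.86 and 1.55. The ratios for Hsph1 were 1.42, 1.61, 1.62 and 1.25. Hsph1 was sparse, and its ratio in C57BL/6 mouse 2 rests on 116 cells with a mean of 0.121 UMIs. For the other members the ratios ran from 1.04 to 1.09 for Hspa8, 0.912 to 1.18 for Dnaja1, 1 to 1.26 for Hsp90aa1, 1 to 1.21 for Hsp90ab1, 0.959 to 1.29 for Hspd1 and 0.867 to 1.13 for Hspe1. Over all cells Dnajb1 and Hsph1 were again above 1 in all 4 mice (1.48 to 1.86 and 1.08 to 1.77), whereas Hsp90aa1, Hsp90ab1, Hspd1 and Hspe1 were below 1 in all 4, with the classes mixed. Hspa8 was at 1.01 to 1.04 and Dnaja1 at 0.85 to 1.1. Cells of 1 mouse are not replicates, and no test was made on them.

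Over the 20 sums of 5 classes in 4 libraries, the genes outside the chaperone lists whose log2 level was most like that of summed Hspa1a and Hspa1b were Arhgap4 (Pearson r = 0.924), Irf2bpl (0.900), Unc13d (0.898), Myo1g (0.891) and Arhgef1 (0.886), of 5250 compared. Among the members the r was 0.457 for Dnajb1, 0.455 for Hspa8, 0.411 for Hsph1, -0.110 for Dnaja1, -0.348 for Hspd1, -0.404 for Hsp90ab1, -0.410 for Hspe1 and -0.454 for Hsp90aa1. These points share libraries and classes, so the values describe the pattern only: the Hspa1 copies were high in iNKT1-like cells and in 1 library, while the HSP90 and mitochondrial members were high in early and dividing cells.

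Other genes of the response were compared by list. In iNKT1-like cells the median log2 difference between genotypes was 0.21 for heat-responsive genes, -0.01 for co-chaperones and regulators, 0.10 for TRiC, 0.12 for mitochondrial chaperones and -0.40 for immediate-early genes, against -0.003 for all genes tested. Of 14 further genes known to respond to heat, 10 were tested in iNKT1-like cells and none was called, in any class, by edgeR or DESeq2. At an unadjusted p under 0.05, edgeR gave 1 to 3 of 9 or 10 genes by class, against the 5.47% to 19.3% of all genes given above, and in iNKT1-like cells this was Bag3, a co-chaperone of HSP70 that HSF1 induces. Bag3 was at 2.87, 1.78, 5.90 and 3.64 CPM. Hspb1, the small chaperone HSP27, had 0, 1, 61 and 7 UMIs in iNKT1-like cells. Stip1, which links HSP70 to HSP90, was at 82.3, 63.3, 133 and 65.6, and Chordc1, an HSP90 partner, at 101, 71.6, 130 and 73.0. The 14 genes of the list summed to 3930, 3160, 3590 and 3270 CPM in iNKT1-like cells, highest in C57BL/6 mouse 1. In each of the other classes that sum was highest in Hivep3-/- mouse 1. From stage 0-like through cycling-like, iNKT2-like and iNKT17-like to iNKT1-like cells, Hivep3-/- mouse 1 was highest for 9 of 9, 7 of 10, 7 of 10, 5 of 9 and 8 of 10 genes tested, against 42.1%, 44%, 46.1%, 38.5% and 45.7% of all genes. The gene of smallest p, Fkbp4, an HSP90 co-chaperone, was at 88.6, 84.6, 173 and 115 in iNKT17-like cells (log2 difference 0.66, SE 0.21, edgeR adjusted p = 0.582). Hsf1 itself was at 42.4, 38.8, 54.8 and 40.8 in iNKT1-like cells.

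Of 16 co-chaperones and regulators none was called in any class by either tool, with 0 to 2 past an unadjusted p under 0.05, a share no higher than that of all genes in 4 of 5 classes. The gene of smallest p was Hspbp1, a nucleotide exchange factor of HSP70, at 82.7, 92.1, 72.0 and 65.4 in cycling-like cells (log2 difference -0.51, SE 0.14, edgeR adjusted p = 0.0969). All 7 measured subunits of the cytosolic chaperonin TRiC went uncalled in every class by both tools, with none at an unadjusted p under 0.05. Cct3 came closest, at 110, 105, 154 and 121 in iNKT1-like cells (0.28, SE 0.13, edgeR adjusted p = 0.658). The 8 mitochondrial chaperones and proteases apart from Hspd1 and Hspe1 also gave no call with either tool, and Dnaja3 in stage 0-like cells, at 18.4, 21, 34.8 and 34.5, was the 1 gene with an unadjusted p under 0.05 (0.71, SE 0.28, edgeR adjusted p = 0.496).

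The chaperones of the endoplasmic reticulum, which answer to the unfolded protein response and not to HSF1, were not called in any class by either tool, though their values in Hivep3-/- were mostly above C57BL/6 in the mature classes. In iNKT17-like cells the median log2 difference of the 15 genes was 0.54 against 0.001 for all genes tested, with 13 of 15 higher in both Hivep3-/- libraries (22.2% of all genes) and 10 at an unadjusted p under 0.05 (5.47% of all genes). The medians were 0.31 in iNKT1-like cells (11 of 15 higher in both against 25.1% of all genes, and 7 at an unadjusted p under 0.05 against 8.46%) and 0.29 in iNKT2-like cells (9 of 15 against 30.3%, and 6 against 10%). In stage 0-like cells the median was -0.10. Pdia6, a protein disulphide isomerase, was at 201, 204, 481 and 326 in iNKT17-like cells (0.92, SE 0.19, edgeR adjusted p = 0.166). Here Hivep3-/- mouse 2 was also above both C57BL/6 mice. Pdia6 was called there without the low-count filter (adjusted p = 0.000425), with the replicate block (adjusted p = 0.0141), without C57BL/6 mouse 2 (adjusted p = 0.0472) and without Hivep3-/- mouse 2 (adjusted p = 0.000232).

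Immediate-early genes, which mark recent stimulation and cell handling, stood differently by class in the library with most Hspa1a. The levels of 16 such genes summed to 13300, 5830, 3460 and 7430 CPM in iNKT1-like cells, lowest in Hivep3-/- mouse 1, and none of the 16 was highest in that library there. The sums were 6320, 3800, 3440 and 6080 in iNKT17-like cells, again lowest in that library, but 2540, 1670, 2890 and 2290 in stage 0-like cells, where it was highest. They were 2230, 1320, 1620 and 2230 in cycling-like and 4190, 2930, 3050 and 4300 in iNKT2-like cells. In both of these classes only C57BL/6 mouse 2 was below Hivep3-/- mouse 1. Dusp1, a MAP kinase phosphatase, was at 4080, 1120, 294 and 1070 in iNKT1-like cells. Ier3, a survival gene, was lower in Hivep3-/- in cycling-like cells, at 14.3, 13.0, 2.75 and 0.595 (log2 difference -3.46, SE 0.48, edgeR adjusted p = 0.00874), and in iNKT2-like cells, at 12.5, 9.60, 2.98 and 2.70 (-2.07, SE 0.32, edgeR adjusted p = 0.043). Socs3, a brake on cytokine signals, was higher in cycling-like cells, at 2.34, 0.648, 11 and 23 (3.20, SE 0.52, edgeR adjusted p = 0.0151). The Ier3 call in iNKT2-like cells was lost without scaling (adjusted p = 0.0766), with the replicate block (adjusted p = 0.0604), at a finer clustering, without Hivep3-/- mouse 1 (adjusted p = 0.291) and without mouse 2 (adjusted p = 0.114). In cycling-like cells the Ier3 and Socs3 calls were lost when libraries were clustered without correction (adjusted p = 0.0851 and 0.0526). The part of immediate-early genes in the Hspa1a and Hspa1b levels was not tested.

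The genotype difference was also compared between the mature and the earliest class, as the interaction of genotype with class in a model with library as a block. Of the 8 members other than Hspa1a and Hspa1b, only Hspd1 was called: its log2 difference was 0.46 higher in iNKT1-like than in stage 0-like cells (SE 0.12, edgeR adjusted p = 0.0329), and 2.82% of all genes were called. In the values above, Hspd1 of Hivep3-/- mouse 2 was below both C57BL/6 mice in stage 0-like cells and between them in iNKT1-like cells, and Hivep3-/- mouse 1 was above both in either class. Hsp90ab1 (0.27, adjusted p = 0.0698) and Hspe1 (0.33, adjusted p = 0.131) gave values of the same sign that did not pass. The Hspd1 call was lost with DESeq2 (adjusted p = 0.169) and without C57BL/6 mouse 2 (0.31, adjusted p = 0.434). Among the lists, 6 of 15 endoplasmic reticulum chaperones were called with a signed log2 difference that was higher in iNKT1-like cells. They were Sdf2l1, Manf, Pdia6, Hsp90b1, Calr and Pdia3. In the class fits each of them was negative in stage 0-like and positive in iNKT1-like cells, as for Manf (-0.591 and 0.144). Of the 16 immediate-early genes, 5 were called with a lower signed difference there (Dusp1, Ier2, Nr4a1, Nfkbia and Zfp36). So was 1 of 16 co-chaperones and regulators, Hspa14, an HSP70 found at ribosomes. Dusp1 (-1.116 and -1.969) and Nfkbia (-0.105 and -0.642) were negative in both classes, while Ier2, Nr4a1, Zfp36 and Hspa14 turned from positive to negative.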

How the data were processed

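Single-cell 5′ RNA-seq was analysed for 2 C57BL/6 and 2 Hivep3-/- mice, 1 library each, grouped by the sample labels. The deposited matrices hold raw UMI counts by gene and barcode. For these the authors ran Cell Ranger 3.1.0 against mm10, and they later used Seurat 3.1.4; no normalization was applied to the deposited counts. Cells with at least 500 and fewer than 4100 genes, at least 1000 UMIs and under 6% mitochondrial UMIs were kept, the thresholds of the study: 7231, 3651, 4598 and 4167 of 8374, 4243, 5019 and 4643 barcodes.

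Cells were clustered in R 4.3.3 with Seurat 5.3.0 (2000 variable genes, 30 principal components, irlba 2.3.5.1, libraries aligned by mutual nearest neighbours with RANN 2.6.2 and k of 20, resolution 0.8). The variable genes held none of the listed chaperone and immediate-early genes, Hivep3, genes of sex or T cell receptor segments. Among its top 50 genes by fold, a cluster needed at least 3 markers of a class to be named for it, and the class with most was taken unless another led in the top 10. That rule was chosen with the data in view, and rebuilt names may differ from the study's. Of 15 clusters, 3 stayed unnamed (clusters 3, 8 and 12, with 1994, 864 and 115 cells). The Scrublet threshold in scanpy 1.11.5 marked 0, 4, 1 and 5 cells and was judged to have failed, so doublets stayed in; removing the highest 5% of scores was an alternative.

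Counts were summed per library and class, since cells are not replicates, and tested with edgeR 4.0.16 (two-sided quasi-likelihood test, filterByExpr, TMM, Benjamini-Hochberg adjustment over all genes tested, adjusted p under 0.05). DESeq2 1.42.0 was an alternative. Log2 differences are Hivep3-/- over C57BL/6; levels (CPM) are unscaled, and are not compared between genes because 5′ counts are not per length. In simulated counts for iNKT1-like cells (10680 genes), 92% of 2-fold and 100% of 4-fold changes were called. For stage 0-like cells (8755 genes) the shares were 88% and 100%. The simulated mice of a group shared the same mean levels with a small fixed spread, and only genes with ample counts were changed. These shares therefore do not hold for genes that varied more between mice, such as Hspa1a and Hsph1, or for genes of low count. Intervals and limits at 0 cover counting error only.

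The members, lists and the rule for named genes were chosen with earlier results of these data known. Named were the members, the called genes of each list or else the gene of smallest p, the 5 genes outside the lists most like summed Hspa1a and Hspa1b, and Hivep3; Bag3, Hspb1, Stip1, Chordc1, Hsf1, Dusp1, Hspa14 and the genes of the lists in the interaction were named after their values were seen. Gene positions came from GENCODE vM21 (GRCm38), with 99.9% of 31053 identifiers matched. Cct6a was not analysed here.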

Additional observations from a re-analysis of the deposited data

Results flagged for a closer look

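The genotype difference of Hspd1, which encodes mitochondrial HSP60, was called as different in iNKT1-like and stage 0-like cells: the interaction of genotype with class was 0.46 on the log2 scale. It is singled out because the difference between the 2 class effects was itself tested and passed (edgeR adjusted p = 0.0329 over 10870 genes). The same test called 2.82% of all genes. The Hspd1 call was lost with DESeq2, without C57BL/6 mouse 2, without scaling and without correction between libraries. In stage 0-like cells the levels were 488 and 471 CPM (UMIs per 1000000 UMIs) in the C57BL/6 mice and 536 and 396 in the Hivep3-/- mice. In iNKT1-like cells they were 168 and 131 against 223 and 163. Hivep3-/- mouse 1 was above both C57BL/6 mice in either class, mouse 2 below both in stage 0-like cells and between them in iNKT1-like cells, and neither class alone gave a call. The cause was not tested.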

How the results depend on the processing

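Leaving out 1 mouse changed the direction of several members. Genes called ranged from 19 (without Hivep3-/- mouse 1) to 215 (without Hivep3-/- mouse 2) in stage 0-like, 369 to 718 (without Hivep3-/- mouse 2) in cycling-like, 1 (without Hivep3-/- mouse 1) to 242 (without C57BL/6 mouse 2) in iNKT2-like, 17 to 130 in iNKT17-like, 23 (without C57BL/6 mouse 1) to 367 (without Hivep3-/- mouse 2) in iNKT1-like and 14 (without Hivep3-/- mouse 1) to 112 in all cells, and 142 to 336 for the interaction. The log2 difference of Hspa8 ranged from -0.25 to 0.80 in stage 0-like, -0.14 to 0.72 in cycling-like, -0.068 to 0.526 in iNKT2-like, -0.17 to 0.55 in iNKT17-like, -0.13 to 0.49 in iNKT1-like and -0.21 to 0.48 in all cells. Hsph1 ranged from -0.55 to 0.97, -0.12 to 0.90, -0.13 to 1.201, -0.21 to 1.22, -0.072 to 1.168 and -0.12 to 1.16 in the same order. For both genes each lowest value came without Hivep3-/- mouse 1 and each highest without mouse 2. Hspa1a ranged from -0.98 to 4.04 (cycling-like), 0.59 to 4.44 (iNKT2-like), 0.88 to 4.93 (iNKT17-like) and 0.87 to 4.20 (all cells), and Hspa1b from -0.094 to 2.968 (cycling-like), lowest without Hivep3-/- mouse 1. Dnajb1 ranged from -0.055 to 0.373 (stage 0-like) and -0.28 to 0.57 (iNKT17-like), Dnaja1 from -0.38 to 0.31 (iNKT1-like) and -0.27 to 0.25 (all cells), Hsp90aa1 from -0.10 to 0.10 (iNKT1-like) and Hsp90ab1 from -0.369 to 0.037 (all cells).

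Against 29, 461, 46, 5, 75 and 94 genes called from stage 0-like to all cells, skipping the low-count filter gave 201, 1163, 396, 89, 461 and 965. DESeq2 gave 99 (iNKT2-like), 9 (iNKT17-like), 167 (iNKT1-like), 413 (all cells) and 95 for the interaction against 306. No scaling gave 13 (stage 0-like) and 2 (iNKT17-like), a resolution of 1.2 gave 45 (stage 0-like) and stricter cell filters 3 (iNKT17-like). No label says what a mouse number marks. Deviations of mice with the same number correlated at r = 0.013 over 12291 genes, although the Hspa1a share and the members' summed level were higher in mouse 1 of both genotypes, and a replicate block gave 143 (stage 0-like), 798 (cycling-like), 39 (iNKT17-like) and 212 (all cells). Values near 0 changed sign: Dnaja1 was 0.086 without scaling and 0.007 without the filter in iNKT1-like cells, and -0.007 with DESeq2 and -0.004 with stricter cells in all cells. Hsp90aa1 in iNKT1-like cells was 0.067, 0.003 and 0.007 without scaling, without the filter and at resolution 1.2. The Hspd1 interaction also lost its call without scaling (0.40) and without correction between libraries (0.37). Of 481 alternative values for the genotype differences of tested named genes, 432 kept direction and side of the threshold. Without TMM scaling the median log2 difference of all genes moved from 0.03 to 0.12 in all cells and to 0.19 in cycling-like cells, and the share of higher genes among those called from 51.6% to 69% in cycling-like cells. The causes of these changes were not tested. With 2 mice a group, differences smaller than the gap between mice cannot be resolved, and in stage 0-like cells depth limits Hspa1a and Hspa1b.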
